A study of Mus musculus with 23 samples.

Results

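The genes described are 40 type I interferon-stimulated genes (ISGs) of the mouse colon, out of 55449 genes in the count table. They were chosen by gene symbol from a list drawn up with earlier results of these same data known, so the values of these libraries had a part in the choice. Which contrast was in view was not recorded. Counts and p-values for these genes are therefore given as a description in every comparison and lend no support to the list itself. All 40 symbols were found in the table.

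RNA was sequenced from the colon of male C57BL/6 mice of the genotype Cdx2Apcf/w, aged 6 to 8 weeks at the start and fed a 60% HFD (high-fat diet). In these mice a Cre recombinase under the *Cdx2* promoter deletes 1 floxed copy of the tumor suppressor *Apc* in *Cdx2*-expressing cells, so every group carries the deletion, and every group had the same diet. All mice had a short course of antibiotics in the drinking water before colonization. BF BSHlow is *Bacteroides fragilis* 638R with an empty vector, and BF BSHhigh is the same strain carrying the bile salt hydrolase gene (*bsh*) of another *B. fragilis* strain. On the gavage the sources differ, every 3 days in the methods and 2 times a week in the labels, as they do on the kit, for mRNA or for total RNA, both stranded. Normal colon was taken after 2 weeks, giving 4 BF BSHlow and 4 BF BSHhigh libraries. After 12 weeks there were 4 libraries of BF BSHlow non-tumor tissues, 4 of BF BSHhigh non-tumor tissues, 4 of BF BSHlow tumors and 3 of BF BSHhigh tumors. In the header of the count table the last 3 carry names of BF BSHlow tumors. They were assigned to the BF BSHhigh tumors from a supplementary table, against this header. Their replicate numbers are not known, so they are called a, b and c. The sources call the samples independent without saying which came from the same mouse. They also speak of pooled sample sizes and pooled samples, so whether a library holds 1 mouse or more is not settled. The p-values therefore measure the spread between the libraries of the groups in each fit. There was no uncolonized group and no group without the *Apc* deletion.

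Type I interferons (IFN-α and IFN-β) bind the receptor IFNAR1/IFNAR2, which activates the kinases JAK1 and TYK2. These phosphorylate STAT2, which with IRF9 is part of the factor ISGF3, and ISGF3 binds the interferon-stimulated response element (ISRE) in the promoters of ISGs. The products of ISGs sense foreign RNA, block viral translation and replication, or damp the signal again. In the intestine, ISGs are expressed by epithelial and immune cells, and the same promoters also respond to type III interferon and in part to IFN-γ.

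The promoters are shown first because the ISRE is the sequence that defines this group of genes in textbooks. RefSeq windows on GRCm38.p6 were at hand for 28 of the 40 ISGs, and the 250 bases before the start site were searched on both strands. The ISRE core GAAANNGAAA was found in 12 of these 28 promoters, 42.9% of them, against 3.46% of the 27025 genes with a window. The IFN-γ-activated site TTCNNNGAA was found in 5 of the 28, 17.9% of them, against 8.13% of all genes. The letters of the 2 motifs can overlap. Of the 12 promoters with an ISRE core, 8 held at least 2 cores, and the core nearest to the start site lay 2 to 212 bases before it, with a median of 70 bases. The stretches below are those of 6 genes whose levels are described later, printed 5′ to 3′ on the strand of the gene, with the ISRE core or its reverse complement in capitals.
Isg15: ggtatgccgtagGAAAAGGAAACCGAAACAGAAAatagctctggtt
Ifit1: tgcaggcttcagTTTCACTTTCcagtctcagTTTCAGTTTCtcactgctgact
Ifit3b: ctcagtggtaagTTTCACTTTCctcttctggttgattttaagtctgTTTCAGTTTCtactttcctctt
Oas1a: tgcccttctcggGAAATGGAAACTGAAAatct
Oas1g: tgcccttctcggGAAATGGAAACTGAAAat
Stat2: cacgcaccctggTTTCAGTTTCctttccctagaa

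The stretch of *Isg15* (chr4:156200863-156200908, minus strand) held 3 overlapping cores, the most among the 28 windows. That of *Ifit1* is at chr19:34640773-34640825 on the plus strand. The stretch of *Ifit3b* (chr19:34607757-34607824, plus strand) has the same letters as that of its neighbour *Ifit3* (chr19:34583361-34583428, plus strand). *Oas1a* (chr5:120907526-120907557, minus strand) and *Oas1g* (chr5:120887614-120887643, minus strand) shared the same pair of overlapping cores, which ended 4 and 2 bases before the start site. The stretch of *Stat2* is at chr10:128270264-128270297 on the plus strand. Cores were also found before *Oas3*, *Rsad2*, *Ddx60*, *Bst2* and *Trim30a*. In the 16 other windows, those of *Irf7*, *Irf9*, *Ifih1*, *Ddx58*, *Ifit2*, *Ifi44*, *Ifi35*, *Oasl1*, *Oasl2*, *Herc6*, *Xaf1*, *Cmpk2*, *Dtx3l*, *Eif2ak2*, *Lgals3bp* and *Samhd1*, these letters did not occur in the window searched. *Usp18*, *Oas2*, *Mx1*, *Mx2*, *Dhx58*, *Zbp1*, *Rtp4*, *Parp9*, *Parp14*, *Ifi27*, *Ifi27l2a* and *Ifi27l2b* had no window.

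The libraries held 12401388 to 17903008 expected counts each (median 15874872). The colon epithelium markers *Epcam*, *Vil1*, *Cdx1*, *Cdx2*, *Krt8*, *Krt20* and *Lgals4* summed to at least 2730 CPM (counts scaled to a common library size) in every library, and summed WNT target genes to 687–1481 CPM in tumors against 30.0–58.1 CPM elsewhere. Smooth muscle markers summed to 819–5366 CPM in 12-week non-tumor tissues and to 3.01–106 CPM in normal colon at 2 weeks, so this content differed between these groups. Of the ISGs, 13 had counts that were not whole in at least 1 library, because RSEM divides reads between similar genes. *Oas1a*, *Oas1g*, *Ifit3* and *Ifit3b* had such counts in all 23 libraries, so their split from each other and from near-identical relatives is uncertain. *Irf7*, *Oasl1*, *Ifi35*, *Usp18*, *Dhx58*, *Parp9*, *Dtx3l* and *Eif2ak2* overlap exons of a gene on the opposite strand, and *Irf9*, *Rtp4*, *Parp14* and *Herc6* those of a gene on the same strand. In bulk tissue, fewer cells of a type and less RNA per cell cannot be told apart.

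Several libraries stood apart from their group in these genes. An ISG index, the mean over the 40 genes of log2 CPM centred on each gene's mean over all libraries, put the BF BSHlow libraries of 2 weeks at −0.05, −0.42, −0.23 and 1.43. Replicate 4 was thus at the level of the BF BSHhigh libraries of 2 weeks, which were at 1.15, 2.04, 1.47 and 1.09. It held the highest value of its group in 38 of the 40 ISGs, whereas it was highest in 27.0% of all genes. Replicate 2 of the BF BSHhigh mice of 2 weeks was highest in 37 ISGs (29.7% of all genes). In BF BSHlow tumors, replicate 1 was highest in 35 ISGs (22.8% of all genes) with an index of −0.22, and the others were at −1.57, −1.31 and −1.05. Among BF BSHhigh tumors, replicate a was highest in 34 ISGs (39.5% of all genes) with an index of 0.60, and b and c were at −0.17 and −0.44. Results that rest on these libraries are given with and without them. Non-tumor libraries were between −1.02 and −0.20 in BF BSHlow mice and between −0.17 and 0.20 in BF BSHhigh mice, so that these groups did not overlap.

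**Figure D1:**
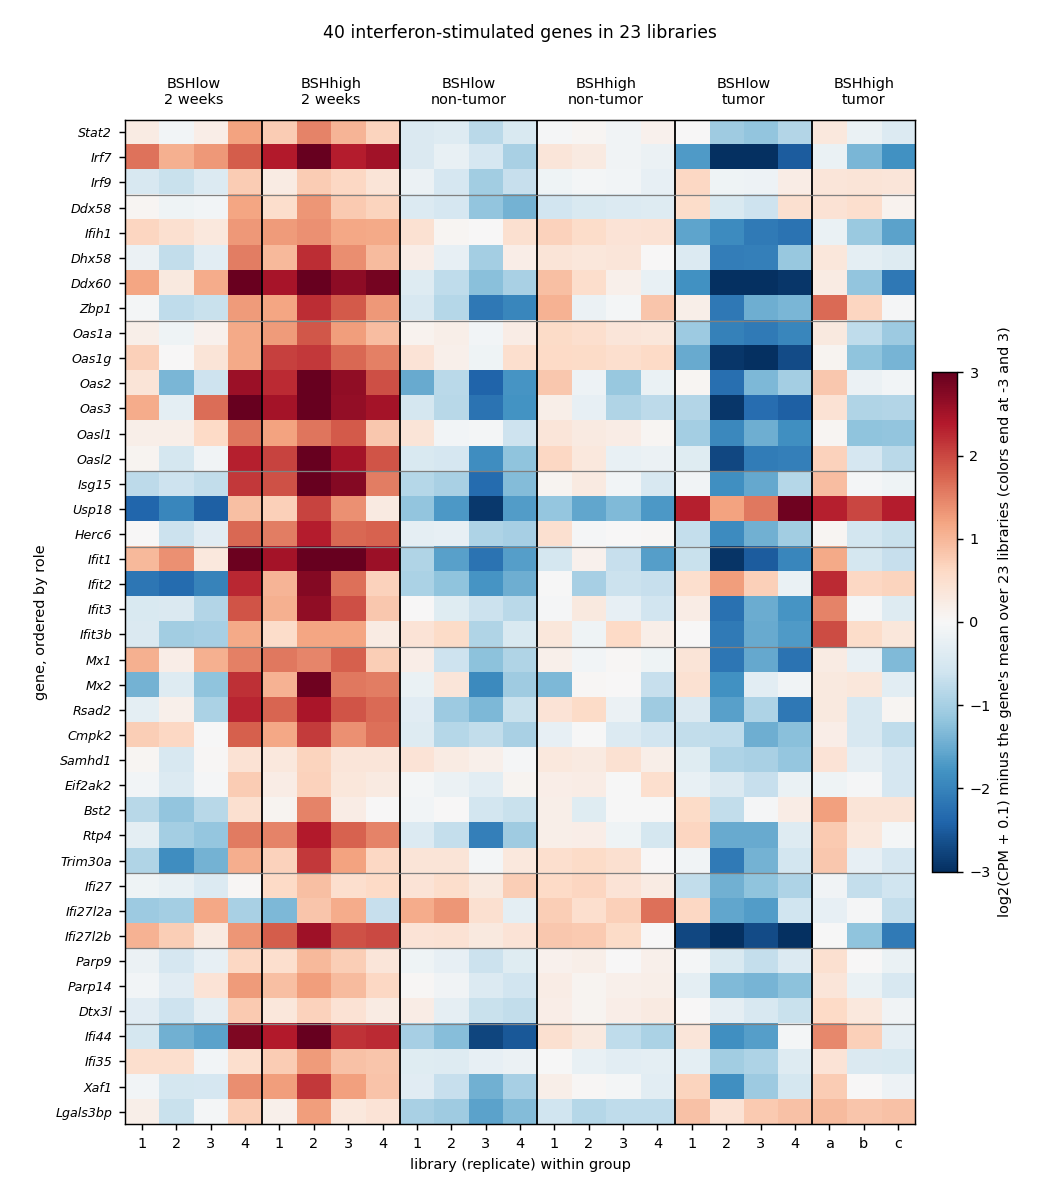
Levels of the 40 ISGs (rows, ordered by role) in the 23 libraries (columns, by group and replicate), as log2(CPM + 0.1) minus the gene's mean over all libraries, with colors ending at −3 and 3. The BF BSHhigh libraries of 2 weeks and replicate 4 of the BF BSHlow libraries of 2 weeks are red in most rows. Of the 4 BF BSHlow tumors, 3 are blue in most rows, with *Usp18*, *Lgals3bp* and *Ifit2* among the exceptions.

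By group means, BF BSHhigh colon at 2 weeks had the highest level of the 6 groups in 35 of the 40 ISGs. The other 5 were highest in BF BSHhigh tumors (4 genes) or in BF BSHhigh non-tumor tissues (1 gene). BF BSHlow tumors had the lowest level in 26 ISGs and BF BSHlow non-tumor tissues in 13. The mean index was 0.18 ± 0.85 (SD, n = 4) in BF BSHlow and 1.44 ± 0.43 (SD, n = 4) in BF BSHhigh colon at 2 weeks. It was −0.58 ± 0.37 and 0.01 ± 0.17 (SD, n = 4 each) in non-tumor tissues, and −1.04 ± 0.59 (SD, n = 4) and 0.00 ± 0.54 (SD, n = 3) in tumors. Per kilobase of exon, the most abundant ISG in BF BSHhigh colon at 2 weeks was *Ifi27l2b* at 339 CPM per kb, of the IFI27 family. *Irf7* followed at 128 CPM per kb and *Lgals3bp* at 107 CPM per kb, and *Mx2* was the least abundant at 0.926 CPM per kb. In the annotation *Mx2* is a polymorphic pseudogene. In BF BSHlow tumors the most abundant was *Lgals3bp*, a secreted galectin-binding glycoprotein, at 119 CPM per kb, followed by *Bst2*, which tethers budding virions, at 21.6 CPM per kb.

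The first comparison asked how colonization with BF BSHhigh in place of BF BSHlow changed the normal colon within 2 weeks. The fitted log2 fold change was above 0 in all 40 ISGs, compared with 49.5% of all genes tested, with a median of 1.10 against 0.00 over all genes. To be called, a gene had to pass an adjusted p of 0.05 and to change by more than 1 on the log2 scale. None of the 40 was called in edgeR's quasi-likelihood test with Benjamini-Hochberg adjustment, compared with 0.00727% of all genes in this direction. At an unadjusted p of 0.05, 22 ISGs passed, compared with 3.83% of all genes in this direction. DESeq2 called 3 (0.138% of all genes) and limma-voom 0. In 5 ISGs, *Irf7*, *Oas1g*, *Ifi27*, *Ifi27l2b* and *Ifi35*, every BF BSHhigh library was above every BF BSHlow library, compared with 2.12% of all genes.

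The factors that carry the signal differed in how clearly the groups parted at 2 weeks. *Irf7*, the factor that amplifies the type I interferon response, was at 240, 164, 193 and 277 CPM in BF BSHlow and at 407, 670, 401 and 448 CPM in BF BSHhigh libraries. Its groups did not overlap, and the log2 fold change was 1.13 ± 0.20 (SE, edgeR adjusted p = 0.319). *Stat2* was at 40.2, 31.9, 38.9 and 78.0 CPM against 58.0, 95, 68.7 and 54.4 CPM, a log2 fold change of 0.53 ± 0.27 (SE, edgeR adjusted p = 0.762), and overlapped through replicate 4. *Irf9*, the DNA-binding subunit of ISGF3, was at 27.2, 23.8, 28.5 and 63.9 CPM against 45.0, 64.6, 58.5 and 49.8 CPM. Here too the overlap came from replicate 4, and the log2 fold change was 0.59 ± 0.28 (SE, edgeR adjusted p = 0.736).

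The smallest adjusted p-values at 2 weeks belonged to genes with a narrow spread. *Ifi27* was at 34.2, 32.2, 28.0 and 38.4 CPM in BF BSHlow and at 56.7, 70.5, 53.2 and 56.6 CPM in BF BSHhigh libraries, a log2 fold change of 0.82 ± 0.12 (SE, edgeR adjusted p = 0.229). *Oas1g*, a 2′-5′-oligoadenylate synthetase that turns on RNase L, was at 36.8, 22.5, 29.5 and 49.6 CPM against 92.6, 98.1, 74.7 and 63.7 CPM. Its log2 fold change was 1.24 ± 0.22 (SE, edgeR adjusted p = 0.319). *Ifi27l2b* was at 179, 145, 104 and 218 CPM against 308, 503, 327 and 342 CPM, with a log2 fold change of 1.18 ± 0.22 (SE, edgeR adjusted p = 0.340). In these 3 genes even replicate 4 of the BF BSHlow mice was below the lowest BF BSHhigh library.

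The largest fitted changes at 2 weeks had wide errors. *Usp18*, the protease that removes ISG15 from proteins and damps signaling at IFNAR2, was at 1.39, 1.90, 1.32 and 14.3 CPM in BF BSHlow and at 12.7, 31.5, 19.8 and 9.21 CPM in BF BSHhigh libraries. Its log2 fold change was 1.91 ± 0.72 (SE, edgeR adjusted p = 0.711). *Isg15*, a ubiquitin-like modifier, was at 6.24, 7.03, 6.51 and 47.9 CPM against 41.1, 88.7, 73.7 and 31.6 CPM, a log2 fold change of 1.77 ± 0.65 (SE, edgeR adjusted p = 0.711). In both genes 3 of the BF BSHlow libraries lay close together far below the BF BSHhigh libraries, and replicate 4 lay among them. By role, the median log2 fold change was 1.77 in the ISG15 cycle (*Isg15*, *Usp18* and the mouse ISG15 ligase *Herc6*), 1.25 in the IFIT family, which binds foreign RNA caps, and 1.19 in the OAS family. It was 1.01 in the 9 antiviral effectors and 0.49 in the group of *Parp9*, *Parp14* and *Dtx3l*.

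Leaving out each library in turn gave 0 calls at 2 weeks with 1 exception. Without replicate 2 of the BF BSHhigh mice the median log2 fold change was 0.74 and 10 ISGs passed an unadjusted p of 0.05. Without replicate 1, 2 or 3 of the BF BSHlow mice the medians were 0.90, 0.84 and 0.93 and 10, 10 and 11 ISGs passed. The share of all genes passing this p is not at hand for these fits, so the counts cannot be set against it. Without replicate 4 of the BF BSHlow mice, 15 ISGs were called higher in BF BSHhigh mice by edgeR, compared with 0.243% of all genes, and the median log2 fold change over the 40 was 1.48. That library stands out by the level of these same genes, so the values without it are a description and not a replacement for those with it. Every BF BSHhigh library was then above every BF BSHlow library in 37 ISGs, compared with 3.77% of all genes, the exceptions being *Ifi27l2a*, *Mx1* and *Lgals3bp*. The 15 genes were *Ddx60*, *Herc6*, *Ifi44*, *Ifit2*, *Irf9*, *Isg15*, *Oas1a*, *Oas1g*, *Oas2*, *Oasl2*, *Rsad2*, *Rtp4*, *Trim30a*, *Usp18* and *Zbp1*.

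Without replicate 4, *Ifi44*, an interferon-induced protein of the cytoplasm, had the largest log2 fold change, 3.98 ± 0.54 (SE, edgeR adjusted p = 0.0265). It was followed by *Ifit2* at 3.93 ± 0.53 (SE, edgeR adjusted p = 0.0265) and *Usp18* at 3.54 ± 0.45 (SE, edgeR adjusted p = 0.0256). *Isg15* was at 3.13 ± 0.36 (SE, edgeR adjusted p = 0.0230) and *Herc6* at 2.17 ± 0.23 (SE, edgeR adjusted p = 0.0202). *Irf9* was the only 1 of the 3 factors called, at 1.02 ± 0.13 (SE, edgeR adjusted p = 0.0256), and *Irf7* was at 1.26 ± 0.20 (SE, edgeR adjusted p = 0.0515). Across the 40 genes the log2 fold changes without this library were between 0.21 and 3.98.

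Markers of other cells moved beside the ISGs at 2 weeks. Of the 7 T cell markers all 7 had a log2 fold change above 0, with a median of 0.82, and they summed to 14.2–33.1 CPM in BF BSHlow and 24.8–52.2 CPM in BF BSHhigh libraries. All 6 B and plasma cell markers were above 0 with a median of 1.22, and their sums were 122–187 and 88.6–347 CPM. The 4 neutrophil markers summed to 1.93–6.72 and 8.72–69.6 CPM, and the macrophage markers to 19.9–33.8 and 17.9–53.2 CPM. In replicate 4 of the BF BSHlow mice, neutrophil markers summed to 6.72 CPM and B and plasma cell markers to 187 CPM, both the highest of its group, and mature colonocyte markers to 11644 CPM, the lowest of its group. Its T cell markers, at 24.8 CPM, were within the range of the group. Replicate 2 of the BF BSHhigh mice, with the highest ISG index of all libraries, had the reverse order. There neutrophil markers summed to 8.72 CPM, the lowest of its group, and mature colonocyte markers to 13916 CPM, the highest of its group. B and plasma cell markers (161 CPM) and T cell markers (40.8 CPM) were within the range of that group. No marker of the 10 lists was at 0 in all libraries, and their part in the result was not tested.

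**Figure D2:**
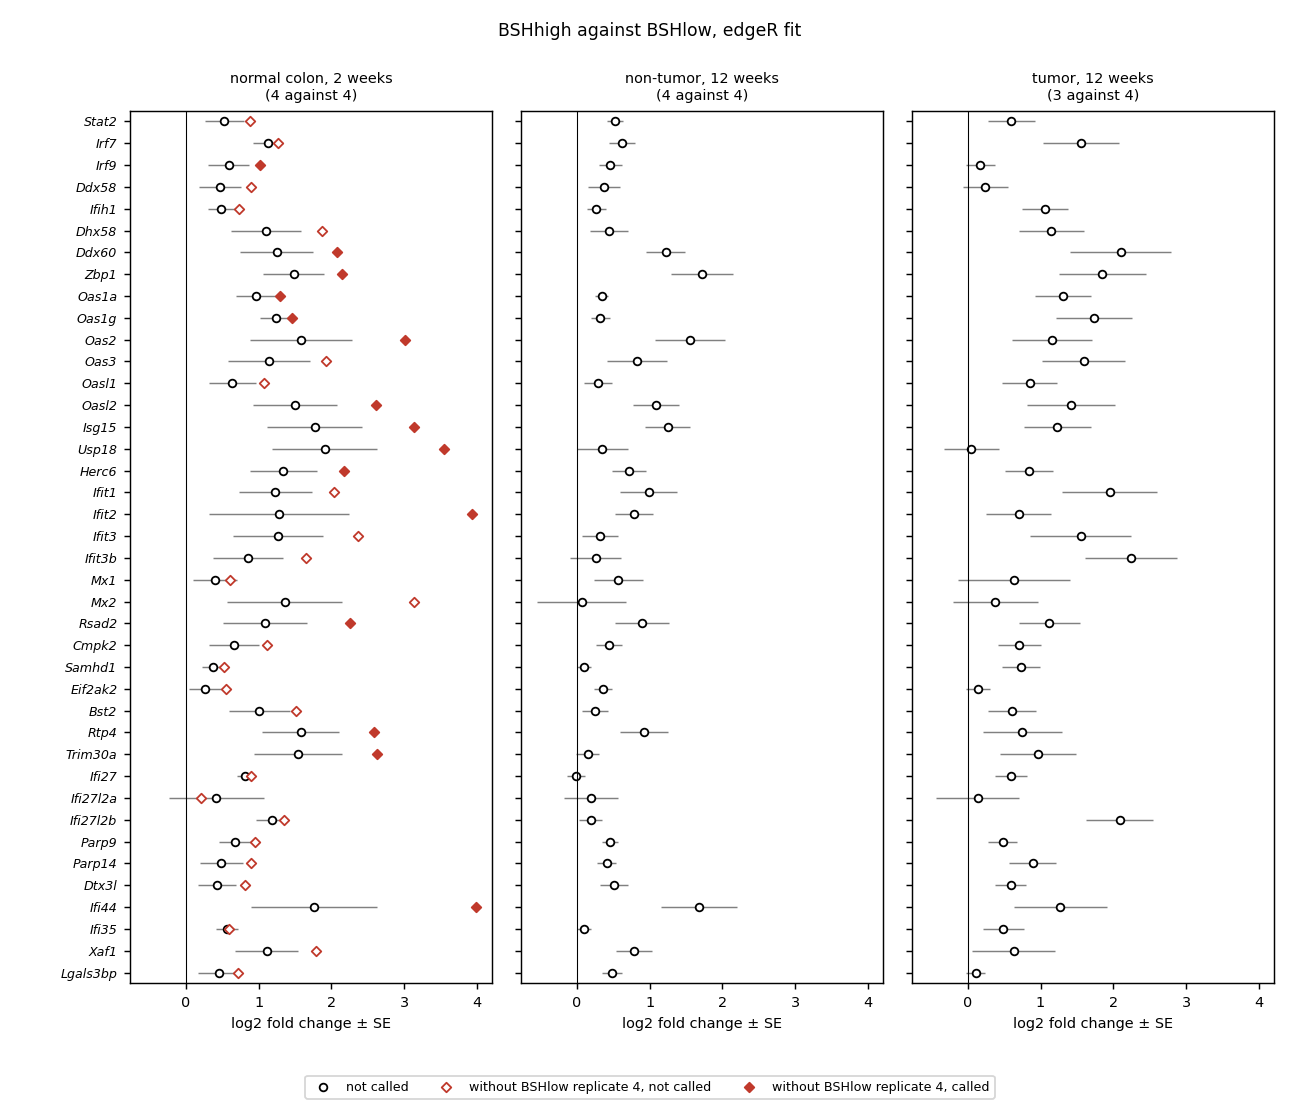
Log2 fold change of BF BSHhigh over BF BSHlow for each of the 40 ISGs (circles, with SE from edgeR as lines) in normal colon at 2 weeks, non-tumor tissues at 12 weeks and tumors at 12 weeks. Diamonds in the first panel give the values without replicate 4 of the BF BSHlow libraries, filled where the gene was called, which move 15 genes to a call, and all circles are open because no ISG was called with all libraries.

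In non-tumor tissues after 12 weeks, which asks whether the difference lasted beside tumors, the fold changes were smaller and the libraries closer together. The log2 fold change was above 0 in 39 of the 40 ISGs, compared with 47.2% of all genes, and the exception was *Ifi27* at −0.01. The median was 0.45 against −0.01 over all genes. No ISG was called by edgeR, and the share over all genes was 0%. At an unadjusted p of 0.05, 23 ISGs passed, compared with 5.30% of all genes in this direction. DESeq2 called 4 (*Ddx60*, *Isg15*, *Oasl2* and *Zbp1*), compared with 0.301% of all genes, and limma-voom 0. In 14 ISGs every BF BSHhigh library was above every BF BSHlow library, compared with 2.98% of all genes. These were *Stat2*, *Irf7*, *Oas1a*, *Oas1g*, *Oasl2*, *Ifi44*, *Isg15*, *Xaf1*, *Zbp1*, *Parp9*, *Parp14*, *Ddx60*, *Herc6* and *Lgals3bp*.

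*Stat2* had the smallest adjusted p in non-tumor tissues. It was at 25.2, 25.9, 19.3 and 24.7 CPM in BF BSHlow and at 33.1, 35.3, 31.8 and 37.0 CPM in BF BSHhigh libraries, a log2 fold change of 0.53 ± 0.11 (SE, edgeR adjusted p = 0.273). *Irf7* was at 57.7, 66.6, 55.0 and 40 CPM against 101, 93.9, 72.0 and 68.7 CPM, a log2 fold change of 0.62 ± 0.18 (SE, edgeR adjusted p = 0.389). Both genes were higher in every BF BSHhigh library. *Irf9* was at 33.2, 26.6, 18.2 and 23.2 CPM against 34.8, 36.4, 35.9 and 31.9 CPM and overlapped in 1 library of each group, with a log2 fold change of 0.46 ± 0.16 (SE, edgeR adjusted p = 0.467).

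*Zbp1*, a sensor of Z-form nucleic acids that can start necroptosis, had the largest fitted change in non-tumor tissues. It was at 13.4, 10.4, 4.14 and 4.73 CPM in BF BSHlow and at 38.7, 16.7, 18 and 33.8 CPM in BF BSHhigh libraries, a log2 fold change of 1.72 ± 0.43 (SE, edgeR adjusted p = 0.329). *Ddx60*, a helicase that aids RNA sensing, was at 12.2, 9.49, 6.72 and 8.22 CPM against 30.0, 23.3, 17.9 and 13.7 CPM. Its log2 fold change was 1.22 ± 0.27 (SE, edgeR adjusted p = 0.323), and again no library overlapped. *Isg15* was at 5.98, 5.50, 2.10 and 4.34 CPM against 11.5, 13.0, 10.3 and 7.80 CPM, with a log2 fold change of 1.25 ± 0.31 (SE, edgeR adjusted p = 0.328). *Parp9*, which acts with *Dtx3l* on ISG transcription, had a log2 fold change of 0.45 ± 0.11 (SE, edgeR adjusted p = 0.328). *Usp18*, in contrast, was at 3.29, 2.26, 0.950 and 2.33 CPM against 3.39, 2.54, 3.01 and 2.23 CPM, which overlapped, with a log2 fold change of 0.35 ± 0.35 (SE, edgeR adjusted p = 0.807).

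In the same tissues neutrophil markers summed to 145–193 CPM in BF BSHlow and 222–366 CPM in BF BSHhigh libraries, with a median log2 fold change of 2.44 over 4 markers, none of which was called. T cell markers (7.12–32.6 and 10.3–36.7 CPM), macrophage markers (66.2–247 and 178–262 CPM) and colon epithelium markers (9962–13011 and 10887–11697 CPM) overlapped. Their part in the result was not tested.

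In tumors the fold changes were above 0 in all 40 ISGs, compared with 45.5% of all genes, with a median log2 fold change of 0.85 against −0.03. No ISG was called by edgeR, compared with 0.463% of all genes in this direction. At an unadjusted p of 0.05, 21 ISGs passed, compared with 8.5% of all genes in this direction. DESeq2 called 9 (3.19% of all genes) and limma-voom 0. In 7 ISGs, *Oas1a*, *Oas1g*, *Ifi27*, *Ifi27l2b*, *Ifit3b*, *Dhx58* and *Herc6*, every BF BSHhigh tumor was above every BF BSHlow tumor, compared with 8.30% of all genes. The counts depended on single libraries. Without replicate 1 of the BF BSHlow tumors the median was 1.28 and 30 ISGs did not overlap (12.4% of all genes), and without replicate a of the BF BSHhigh tumors the median was 0.48 and 7 ISGs did not overlap (9.48% of all genes). In these fits 32 and 4 ISGs passed an unadjusted p of 0.05, as did 12 without replicate 2 and 10 without replicate 3 of the BF BSHlow tumors. The share of all genes passing this p without a library is not at hand, so these counts cannot be set against it.

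*Ifi27l2b* had the smallest adjusted p in tumors. It was at 12.9, 10.7, 13.5 and 6.87 CPM in BF BSHlow and at 85.8, 37.8 and 19.9 CPM in BF BSHhigh tumors, a log2 fold change of 2.09 ± 0.46 (SE, edgeR adjusted p = 0.0865). Without replicate c it was the only ISG called, compared with 1.49% of all genes. *Ifit3b* was at 3.71, 0.758, 1.23 and 1.06 CPM against 14.6, 5.39 and 4.68 CPM, a log2 fold change of 2.24 ± 0.63 (SE, edgeR adjusted p = 0.178), with reads shared with *Ifit3*. *Oas1a* was at 26.5, 13.8, 12.9 and 14.6 CPM against 69.1, 33.2 and 26.5 CPM, with a log2 fold change of 1.31 ± 0.38 (SE, edgeR adjusted p = 0.192), and its lowest BF BSHhigh and highest BF BSHlow tumor were nearly equal. *Oas1g* was at 7.81, 2.88, 2.27 and 3.43 CPM against 23.7, 9.68 and 8.51 CPM, a log2 fold change of 1.73 ± 0.52 (SE, edgeR adjusted p = 0.207).

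Among the factors, *Irf7* was at 24.0, 6.27, 8.64 and 13.8 CPM in BF BSHlow and at 67.6, 29.9 and 22.1 CPM in BF BSHhigh tumors, a log2 fold change of 1.56 ± 0.52 (SE, edgeR adjusted p = 0.258). *Stat2* was at 34.0, 16.2, 15 and 18.3 CPM against 42.2, 29.4 and 25.6 CPM, with a log2 fold change of 0.60 ± 0.32 (SE, edgeR adjusted p = 0.495). Both overlapped only through replicate 1 of the BF BSHlow tumors. *Irf9* was at 58.3, 34.5, 33.8 and 44.4 CPM against 48.9, 49.8 and 48.5 CPM, with a log2 fold change of 0.17 ± 0.20 (SE, edgeR adjusted p = 0.778). The BF BSHhigh tumors thus lay within the range of the BF BSHlow tumors for *Irf9*.

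*Isg15* and *Usp18*, which act on the same pathway of protein modification, had different patterns in tumors. *Isg15* was at 10.1, 2.98, 3.68 and 6.00 CPM in BF BSHlow and at 20.6, 10.4 and 9.98 CPM in BF BSHhigh tumors, a log2 fold change of 1.23 ± 0.46 (SE, edgeR adjusted p = 0.309). *Usp18* was at 39.0, 17.8, 23.1 and 58.2 CPM against 38.8, 31.0 and 39.7 CPM, a log2 fold change of 0.05 ± 0.38 (SE, edgeR adjusted p = 0.974), so that all BF BSHhigh tumors lay between BF BSHlow tumors. By role, the median log2 fold change was 1.75 in the IFIT family, 1.37 in the OAS family, 0.71 in the antiviral effectors and 0.59 in the group of *Parp9*, *Parp14* and *Dtx3l*. The difference between *Isg15* and *Usp18* was not tested.

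Markers of other cells differed between the tumor groups as well. T cell markers summed to 6.97–20.5 CPM in BF BSHlow and 34.2–45.0 CPM in BF BSHhigh tumors, with a median log2 fold change of 2.18, and B and plasma cell markers to 0.629–6.80 and 89.2–120 CPM (median 2.69 over 4 markers tested, 1 of them called). Mature colonocyte markers summed to 38.9–115 and 67.3–255 CPM, with a median log2 fold change of 5.67 and 2 of 5 called higher. The sums overlapped, with medians of 70.6 and 76.1 CPM, and the log2 fold changes of the 5 markers ran from 0.00 to 6.40. The large changes thus lay in markers that made up little of the sum in BF BSHlow tumors. Replicate a, which had the highest ISG index of the tumors, also had the highest sums of T cell (45.0 CPM) and mature colonocyte markers (255 CPM). Macrophage markers summed to 386, 140, 202 and 279 CPM in BF BSHlow and to 439, 325 and 293 CPM in BF BSHhigh tumors. They overlapped only through replicate 1 of the BF BSHlow tumors, which also had the highest ISG index of its group, as replicate a had of its own. Other markers had another order. T cell markers of BF BSHlow tumors were highest in replicate 3 (20.5 CPM, against 17.2 CPM in replicate 1). Neutrophil (408 CPM) and B and plasma cell markers (120 CPM) of BF BSHhigh tumors were highest in replicate c. In BF BSHhigh non-tumor tissues, replicate 4 had the highest macrophage sum (262 CPM) and the lowest ISG index (−0.17). The part of these markers in the result was not tested.

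**Figure D3:**
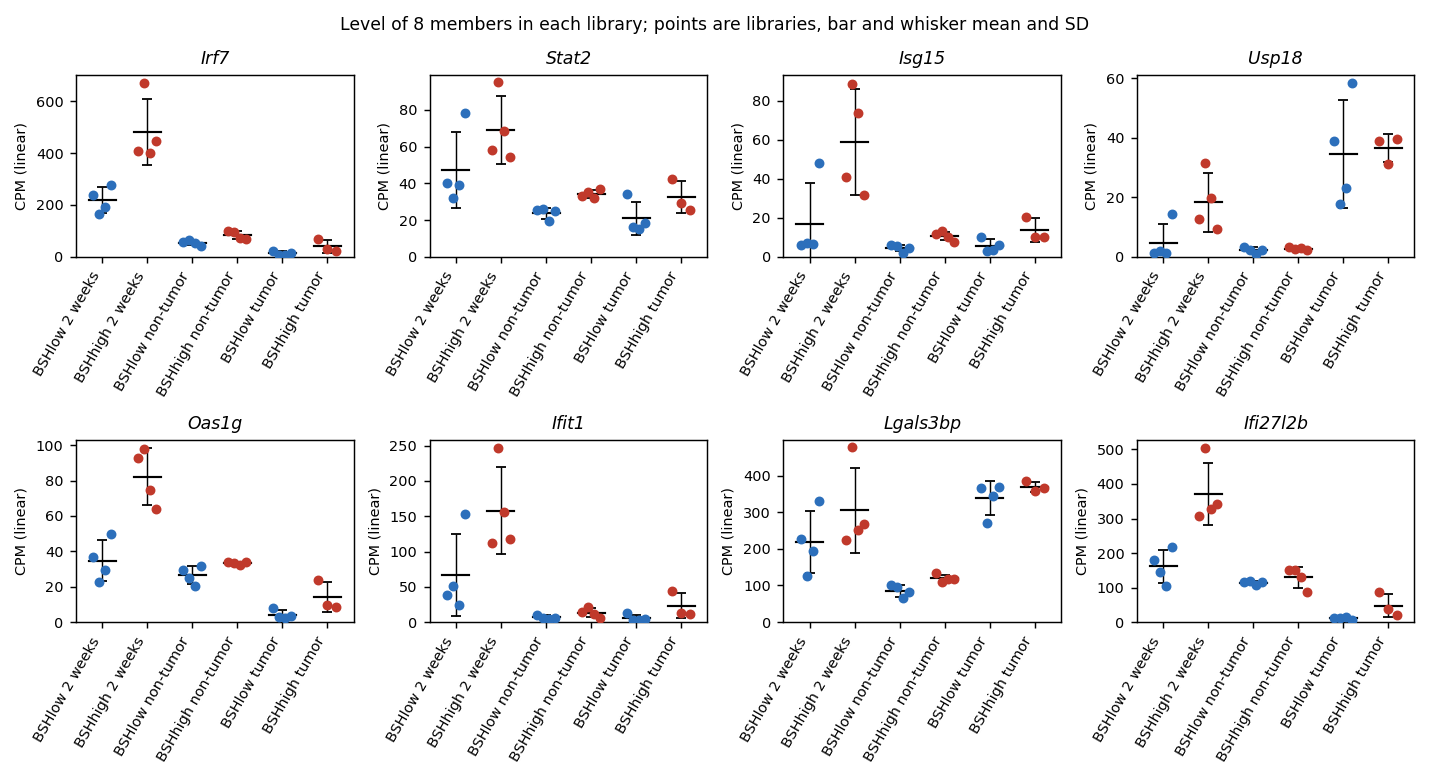
CPM (linear scale) of 8 ISGs in every library of the 6 groups, blue for BF BSHlow and red for BF BSHhigh, with the mean as a bar and the SD as whiskers (n = 4, and n = 3 for BF BSHhigh tumors). *Irf7*, *Oas1g*, *Ifit1* and *Ifi27l2b* are highest in BF BSHhigh colon at 2 weeks and low in tumors, whereas *Usp18* and *Lgals3bp* are high in tumors.

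The genes upstream of the ISGs were measured in the same libraries. The 18 type I interferon genes and the 3 genes of type II and III interferons on the lists had too few counts to be tested in any comparison. *Ifnb1* had 2 counts in 1 BF BSHhigh tumor and 0 in the other 22 libraries, and a count of 0 allows up to 3 counts in a library. *Ifng* had at most 11 counts. *Ifne*, an epithelial type I interferon, was at 0 in all non-tumor and 2-week libraries, had 4–6 counts in BF BSHlow tumors and 1–4 counts in BF BSHhigh tumors. The receptor gene *Ifnar1* was at 47.0 ± 4.07 and 49.8 ± 2.24 CPM (SD, n = 4 each) at 2 weeks. *Ifnar1* was at 43.7 ± 3.50 and 42.4 ± 3.79 CPM (SD, n = 4 each) in non-tumor tissues, and at 68.0 ± 5.90 (SD, n = 4) and 66.4 ± 4.91 CPM (SD, n = 3) in tumors, with BF BSHlow first. *Ifnar2* was at 23 ± 3.75 CPM (SD, n = 4) in BF BSHlow tumors and 9.83 ± 4.50 CPM (SD, n = 4) in non-tumor tissues, and was called higher in the tumors of both colonizations (log2 fold changes of 1.24 ± 0.31 and 1.57 ± 0.12, SE, edgeR adjusted p = 0.00687 and 4.41e-05). Neither receptor gene was called between BF BSHhigh and BF BSHlow, with log2 fold changes between −0.18 and 0.14.

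Lists of further interferon targets, also drawn up with results of these data known, were read beside the 40 genes. Of 46 other type I targets, 35 of the 39 tested had a log2 fold change above 0 at 2 weeks (median 0.44), 40 of 43 in non-tumor tissues (median 0.20) and 38 of 43 in tumors (median 0.61), and none was called. In the upward direction, 17, 10 and 10 of them passed an unadjusted p of 0.05, beside the shares of 3.83%, 5.30% and 8.5% of all genes given above. The GTPases of the IFN-γ response, which attack the vacuoles of intracellular pathogens, were above 0 in all 14 tested at 2 weeks (median 0.99), all 14 in non-tumor tissues (median 0.74) and all 15 in tumors (median 1.72), and again none was called. The median of the 9 receptor and kinase genes was 0.10 at 2 weeks, −0.01 in non-tumor tissues and 0.06 in tumors. The 4 negative regulators (*Socs1*, *Socs3*, *Ptpn6* and *Pias1*) had medians of 0.12, 0.25 and 0.13.

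Tumors were then compared with non-tumor tissues of the same colonization, and some ISGs were called in each direction. With all libraries, only the lower calls in BF BSHlow mice made up a larger share than over all genes. In BF BSHlow mice 3 ISGs were higher in tumors, compared with 16.1% of all genes, and 10 were lower, compared with 17.6% of all genes. The median log2 fold change over the 40 was −0.32, against 0.05 over all genes. Every tumor was below every non-tumor library in 28.5% of all genes and in 10 ISGs. In BF BSHhigh mice 3 were higher, compared with 14.6% of all genes, and 5 lower, compared with 15% of all genes, with a median of −0.01 against 0.04. Every tumor was below every non-tumor library in 8 ISGs, compared with 29.3% of all genes. With library size as the only scaling, which moved the median of all genes to 0.38 and 0.35, the split was 5 higher and 8 lower in BF BSHlow mice, compared with 23.9% and 13.3% of all genes. It was 7 higher and 3 lower in BF BSHhigh mice, compared with 21.6% and 11.3% of all genes.

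*Usp18* was the most increased ISG in tumors. It rose from 2.21 ± 0.961 to 34.5 ± 18.2 CPM (SD, n = 4 each) in BF BSHlow mice, a log2 fold change of 3.98 ± 0.48 (SE, edgeR adjusted p = 0.000113), and in BF BSHhigh mice by 3.69 ± 0.17 (SE, edgeR adjusted p = 8.37e-06). Its exons overlap a gene on the opposite strand. *Ifit2* rose from 6.05 ± 1.47 to 24.1 ± 9.61 CPM (SD, n = 4 each) in BF BSHlow mice, by 1.99 ± 0.30 on the log2 scale (SE, edgeR adjusted p = 0.000438), and by 1.92 ± 0.42 (SE, edgeR adjusted p = 0.00503) in BF BSHhigh mice. *Lgals3bp* rose from 86.1 ± 16.4 to 338 ± 46.2 CPM (SD, n = 4 each) in BF BSHlow mice, by 1.98 ± 0.17 (SE, edgeR adjusted p = 1.47e-05), and by 1.62 ± 0.09 (SE, edgeR adjusted p = 1.42e-05) in BF BSHhigh mice. No tumor overlapped a non-tumor library in any of these 3 genes.

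The ISGs lower in BF BSHlow tumors included several that were abundant in non-tumor tissues. *Ifi27l2b* was at 116, 118, 107 and 115 CPM in non-tumor tissues and at 12.9, 10.7, 13.5 and 6.87 CPM in tumors, a log2 fold change of −3.37 ± 0.20 (SE, edgeR adjusted p = 2.38e-06). *Oas1g* was at 29.7, 25, 20.4 and 31.8 CPM against 7.81, 2.88, 2.27 and 3.43 CPM, a log2 fold change of −2.69 ± 0.39 (SE, edgeR adjusted p = 0.000334). *Ifih1*, which encodes the RNA sensor MDA5, was at 88.3, 67.3, 65.5 and 90.0 CPM against 21.7, 17.4, 14.7 and 13.8 CPM, with a log2 fold change of −2.20 ± 0.19 (SE, edgeR adjusted p = 1.50e-05). In all 3 the tumors lay far below the non-tumor tissues. *Irf7* (−2.03 ± 0.39, SE, edgeR adjusted p = 0.00165), *Ddx60* (−2.01 ± 0.49, SE, edgeR adjusted p = 0.00624), *Oas1a* (−1.84), *Ifi27* (−1.56), *Oasl1* (−1.47), *Trim30a* (−1.11) and *Samhd1* (−1.02) were also lower. Without replicate 1 of the tumors, 18 ISGs were lower (19% of all genes) and 3 higher (15.4% of all genes), with a median of −0.78.

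In BF BSHhigh mice the 5 lower ISGs were *Ifi27l2b* at −1.45 ± 0.45 (SE, edgeR adjusted p = 0.0233), *Ifih1* at −1.39 ± 0.30 (SE, edgeR adjusted p = 0.00422), *Ifi27l2a* at −1.31 ± 0.32 (SE, edgeR adjusted p = 0.00783), *Oas1g* at −1.27 ± 0.33 (SE, edgeR adjusted p = 0.0105) and *Irf7* at −1.08 ± 0.36 (SE, edgeR adjusted p = 0.0302). Without replicate a of the tumors, 9 were lower (16.1% of all genes) and 3 higher (14.7% of all genes). *Stat2* was not called in either colonization, with log2 fold changes of −0.17 ± 0.27 and −0.09 ± 0.16 (SE), and neither was *Isg15*, at 0.36 ± 0.45 and 0.35 ± 0.29 (SE). *Irf9* was higher in every tumor than in every non-tumor library of its colonization, by 0.77 ± 0.23 (SE, edgeR adjusted p = 0.0170) and 0.49 ± 0.08 (SE, edgeR adjusted p = 0.000818), below the fold limit of a call.

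The makeup of the tissue moved with these values. From non-tumor tissues to tumors, median log2 fold changes over markers were −5.91 and −5.03 for smooth muscle, −10.57 and −4.54 for mature colonocytes and 4.25 and 4.12 for WNT targets, in BF BSHlow and BF BSHhigh mice. Their part in the result was not tested. Mature colonocyte markers summed to 1344–3963 CPM in BF BSHlow and 1553–2033 CPM in BF BSHhigh non-tumor tissues, and colon epithelium markers to 2730–5069 and 4151–7070 CPM in the tumors.

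**Figure D4:**
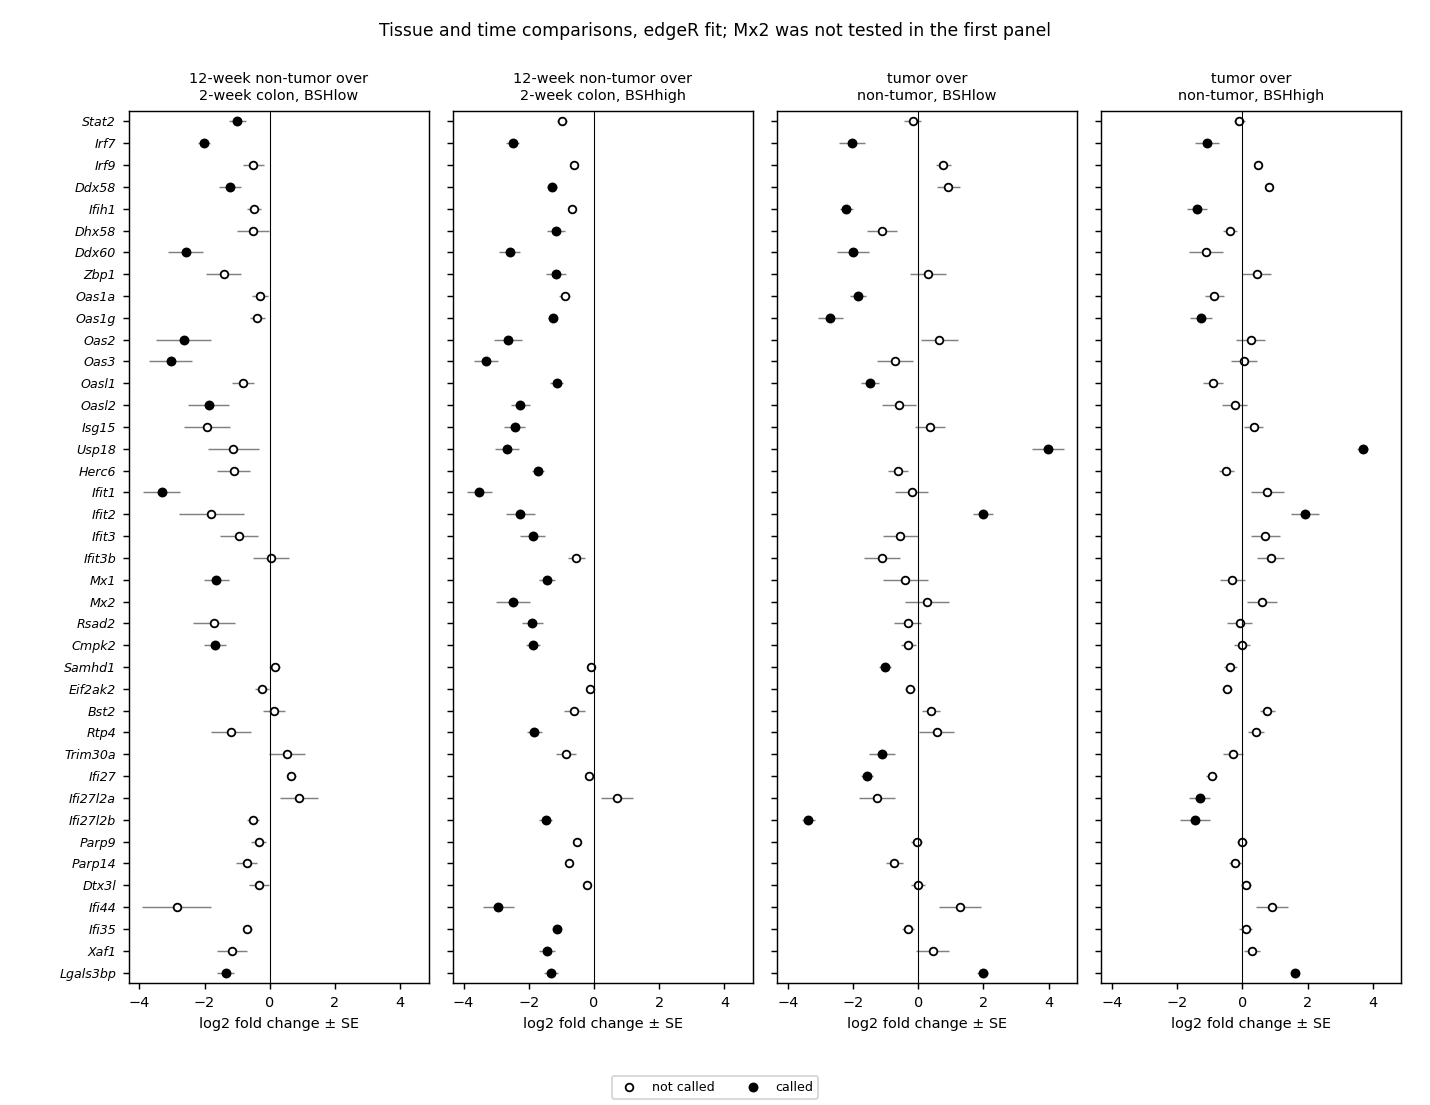
Log2 fold change with SE (edgeR) of each ISG for non-tumor tissues at 12 weeks over normal colon at 2 weeks and for tumors over non-tumor tissues, in BF BSHlow and BF BSHhigh mice, with filled circles for called genes (*Mx2* was not tested in the first panel). Filled circles lie left of 0 for 11 and 26 ISGs over time, and in tumors on both sides, with *Usp18*, *Ifit2* and *Lgals3bp* at the right.

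Many ISGs were lower in non-tumor tissues after 12 weeks than in normal colon after 2 weeks. In BF BSHhigh mice 26 ISGs were lower, compared with 7.34% of all genes, and none was higher, compared with 15.9% of all genes. The log2 fold change was below 0 in 39 of the 40, with a median of −1.30 against 0.02 over all genes, and 33 ISGs did not overlap in this direction, compared with 24.7% of all genes. In BF BSHlow mice 11 of the 39 ISGs tested were lower, compared with 7.59% of all genes, and none was higher, compared with 15.1% of all genes. The median there was −1.0 against −0.02, and 10 ISGs did not overlap, compared with 18.9% of all genes. *Mx2* was removed by the filter on low counts in BF BSHlow mice. Under library size scaling the median of all genes moved to 0.30 in BF BSHhigh and 0.22 in BF BSHlow mice, and 21 and 8 ISGs were lower, compared with 5.19% and 5.58% of all genes.

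*Irf7* had the smallest adjusted p of these changes. From 2 to 12 weeks it fell from 482 ± 127 to 83.8 ± 15.8 CPM (SD, n = 4 each) in BF BSHhigh mice, a log2 fold change of −2.49 ± 0.20 (SE, edgeR adjusted p = 2.77e-05). In BF BSHlow mice it fell from 219 ± 50.1 to 54.8 ± 11.1 CPM (SD, n = 4 each), a log2 fold change of −2.01 ± 0.19 (SE, edgeR adjusted p = 7.33e-05). The lowest 2-week library, at 164 CPM, was above the highest non-tumor library, at 101 CPM. *Ifit1*, which binds RNA lacking the cap methylation of the host, was at 112, 246, 156 and 118 CPM in BF BSHhigh colon at 2 weeks and at 13.7, 21.5, 12.1 and 6.16 CPM in non-tumor tissues, a log2 fold change of −3.52 ± 0.38 (SE, edgeR adjusted p = 0.000105). In BF BSHlow mice its log2 fold change was −3.31 ± 0.57 (SE, edgeR adjusted p = 0.00152).

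Other lower ISGs in BF BSHhigh mice were *Oas3* at −3.32 ± 0.37 (SE, edgeR adjusted p = 0.000122) and *Ifi44* at −2.93 ± 0.48 (SE, edgeR adjusted p = 0.000901). *Usp18* was at −2.67 ± 0.37 (SE, edgeR adjusted p = 0.000358), *Oas2* at −2.64 ± 0.42 (SE, edgeR adjusted p = 0.000786), *Ddx60* at −2.59 ± 0.31 (SE, edgeR adjusted p = 0.000184) and *Isg15* at −2.43 ± 0.32 (SE, edgeR adjusted p = 0.000295). All 3 genes of the ISG15 cycle, 5 of 6 OAS genes and 3 of 4 IFIT genes were called. *Stat2* (−0.98 ± 0.16, SE, edgeR adjusted p = 0.000822) and *Irf9* (−0.62 ± 0.11, SE, edgeR adjusted p = 0.00135) passed the adjusted p but not the fold limit. *Ifi27* (−0.14 ± 0.11, SE), *Samhd1* (−0.10 ± 0.09, SE), *Eif2ak2* (−0.12 ± 0.13, SE) and *Ifi27l2a* (0.71 ± 0.50, SE) did not pass.

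In BF BSHlow mice the 11 lower ISGs were *Stat2*, *Irf7*, *Oas2*, *Oas3*, *Oasl2*, *Ifit1*, *Mx1*, *Ddx58*, *Ddx60*, *Cmpk2* and *Lgals3bp*, with log2 fold changes from −3.31 in *Ifit1* to −1.0 in *Stat2*. *Oas3* was at −3.04 ± 0.66 (SE, edgeR adjusted p = 0.00500), *Oas2* at −2.64 ± 0.84 (SE, edgeR adjusted p = 0.0291), *Ddx60* at −2.58 ± 0.53 (SE, edgeR adjusted p = 0.00372) and *Oasl2* at −1.87 ± 0.63 (SE, edgeR adjusted p = 0.0383). *Stat2*, at −1.0 ± 0.26 (SE, edgeR adjusted p = 0.0113), was lower as well, but lay at the fold limit, which it just missed in BF BSHhigh mice. It was not called with RLE or library size scaling, DESeq2, limma-voom, all libraries in 1 fit or the replicate number as a block. Nor was it called without replicate 4 of 2 weeks or without replicate 3 of the non-tumor tissues. Without any other single library it stayed called. Among the genes not called, *Isg15* was at −1.92 ± 0.71 (SE, edgeR adjusted p = 0.0522), *Usp18* at −1.12 ± 0.79 (SE, edgeR adjusted p = 0.281) and *Irf9* at −0.51 ± 0.32 (SE, edgeR adjusted p = 0.217). Without replicate 4 of 2 weeks 7 ISGs were lower (7.70% of all genes) and 1, *Trim30a*, was higher (15.3% of all genes), and the median was −0.30. *Oas3*, at 26.4, 9.85, 38.9 and 97.1 CPM at 2 weeks and 8.37, 6.77, 2.51 and 3.43 CPM at 12 weeks, stayed among the lower genes. Leaving out replicate 3 of 2 weeks gave 17 calls, of which 16 were lower (7.65% of all genes), and leaving out replicate 3 of the non-tumor tissues gave 7 lower (7.32% of all genes).

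Time, age, length of the diet and the makeup of the tissue cannot be told apart in this comparison. Smooth muscle markers were called higher at 12 weeks in 4 of 4 cases and macrophage markers in 8 of 8 in both colonizations, with median log2 fold changes of 5.59 and 2.83 in BF BSHlow mice and 5.61 and 2.74 in BF BSHhigh mice. Summed smooth muscle markers went from 19.6–106 to 819–5366 CPM and from 3.01–89.9 to 1976–2645 CPM. Colon epithelium markers went from 14444–15695 to 9962–13011 CPM in BF BSHlow mice and from 16004–19273 to 10887–11697 CPM in BF BSHhigh mice. Summed mature colonocyte markers fell further, from 11644–21230 to 1344–3963 CPM and from 9144–13916 to 1553–2033 CPM. In each colonization 1 of these 5 markers was called lower, at −5.18 and −6.07 on the log2 scale, while the medians were 0.42 and −0.42. Their part in the result was not tested.

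The comparisons above share groups, so the differences between them were tested directly. The interaction of colonization and tissue at 12 weeks was above 0 in 28 of the 40 ISGs, with a median of 0.30, and called none of them in edgeR, compared with 0.972% of all genes. At an unadjusted p of 0.05, 7 ISGs passed upward, compared with 7.36% of all genes. DESeq2 called 1, near the share of 2.30% of all genes, and limma-voom 0. *Ifi27l2b* had the smallest adjusted p, at 1.92 ± 0.49 on the log2 scale (SE, edgeR adjusted p = 0.0946), followed by *Oas1g* at 1.42 ± 0.53 (SE, edgeR adjusted p = 0.342), *Ifit3b* at 1.98 ± 0.74 (SE, edgeR adjusted p = 0.351) and *Oas1a* at 0.98 ± 0.39 (SE, edgeR adjusted p = 0.410). *Stat2* was at 0.08 ± 0.34, *Irf7* at 0.95 ± 0.56, *Irf9* at −0.28 ± 0.27, *Isg15* at −0.02 ± 0.57 and *Usp18* at −0.29 ± 0.53 (SE). The median was 0.01 without replicate a and 0.52 without replicate c of the BF BSHhigh tumors, 0.69 without replicate 1 and 0.16 without replicate 2 of the BF BSHlow tumors, and 0.16 without replicate 1 of the BF BSHlow non-tumor tissues.

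The interaction of colonization and time, between 2-week normal colon and 12-week non-tumor tissues, was below 0 in 34 of the 40 ISGs with a median of −0.29, and called no ISG, compared with 0% of all genes. At an unadjusted p of 0.05, 4 ISGs passed in the downward direction (2.74% of all genes) and none upward (4.57% of all genes), and DESeq2 and limma-voom called none. *Ifi27* had the smallest adjusted p, at −0.82 ± 0.18 (SE, edgeR adjusted p = 0.300), followed by *Ifi27l2b* at −0.98 ± 0.29 (SE, edgeR adjusted p = 0.438), *Oas1g* at −0.90 ± 0.28 (SE, edgeR adjusted p = 0.445) and *Ifi35* at −0.46 ± 0.19 (SE, edgeR adjusted p = 0.628). *Irf7* was at −0.49 ± 0.28 (SE, edgeR adjusted p = 0.749), *Usp18* at −1.56 ± 0.92 (SE, edgeR adjusted p = 0.768), *Isg15* at −0.50 ± 0.82 (SE), *Irf9* at −0.11 ± 0.36 (SE) and *Stat2* at 0.02 ± 0.32 (SE), none of them called. The median moved in both directions when single libraries were left out. It was −0.96 without replicate 4, −0.12 without replicate 2 and −0.17 without replicate 1 of the BF BSHlow mice of 2 weeks. Without replicate 2 of the BF BSHhigh mice of 2 weeks it was −0.09, with 17 of 40 ISGs above 0, and without replicate 4 it was −0.44. Without replicate 1 of the BF BSHlow non-tumor tissues it was −0.14, and none of these fits called an ISG.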

How the data were processed

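RNA-seq of 23 colon libraries of 6 groups was analysed. Cutadapt, STAR (mm10) and RSEM were used by the authors, who deposited unnormalized expected counts, of which 4.24% are not whole. Gene positions are those of GENCODE M21 (GRCm38). One row whose cell holds text (*Fgf6*) and 1 row with no gene name were left out. The 3 columns of the BF BSHhigh tumors repeat names of BF BSHlow tumors in the header. They were assigned as a group against the header. The reason is that 1984 of 1996 rows at hand of a supplementary table hold equal values under BF BSHhigh tumors.

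The tests ran on rounded expected counts and used edgeR 4.0.16 under R 4.3.3 (quasi-likelihood fit, TMM scaling, filterByExpr, Benjamini-Hochberg adjustment over all genes tested). Each fit held only the groups compared, and an interaction fit held 4 groups. A call needed an adjusted p under 0.05 and a log2 fold change beyond 1 in either direction. CPM values were scaled by TMM over all 23 libraries, and log2 CPM used a prior count of 2. Totals of 12401388 to 17903008 counts per library set the precision, and counting limits cover counting error only. Replicates differed beyond counting noise (chi-square of at least 16.6 for each degree of freedom), so no library was counted as a copy of another.

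The genes and lists were chosen with earlier results of these data known. Genes given with full statistics were, for each comparison, up to 6 called ones with the largest fold change or, where none was called, up to 4 with the smallest p. *Stat2*, *Irf7*, *Irf9*, *Isg15* and *Usp18* were described in every comparison. One gene outside the list that the rule also names is not reported here. Some further members were described for their role after their values were seen. The alternatives were RLE and library size scaling, no filter, DESeq2 1.42.0, limma-voom (limma 3.58.1), no fold limit, all libraries in 1 fit, leaving out single libraries, and the replicate number as a block. Simulated counts served to check the fits. Promoter letters were searched with Python 3.11.15 and pandas 2.3.3, and figures were drawn with matplotlib 3.10.9.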

Additional observations from a re-analysis of the deposited data

Results flagged for a closer look

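In 3 of 30 sets of 4 libraries examined, replicate 4 of the BF BSHlow mice of 2 weeks lay far from the other 3. *Irf9* was at 63.9 CPM there and at 23.8–28.5 CPM in the others, and its gap to the nearest library was 0.883 of the range of the group. *Isg15* was at 47.9 CPM against 6.24–7.03 CPM (0.981 of the range), and *Usp18* at 14.3 CPM against 1.32–1.9 CPM (0.955 of the range). These ratios are above Dixon's critical value for 4 libraries, which chance alone passes in about 1 in 20 groups. The 3 genes were measured in the same library and are high together in it, so they are not 3 separate signs. With and without this library, the results at 2 weeks are given above. In the same group the ISG index, *Stat2* and *Irf7* were examined in the same way and did not pass the critical value.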

How the results depend on the processing

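The counts of called ISGs between BF BSHhigh and BF BSHlow depended on the tool. With DESeq2, 9 were called in tumors (3.19% of all genes), 4 in non-tumor tissues (0.301%), 3 at 2 weeks (0.138%) and 1 in the interaction with tissue (2.30%), against 0 with edgeR. With no filter on low counts 1 was called in tumors (1.22% of all genes) and 1 at 2 weeks (0.0165%), and with all 23 libraries in 1 fit 6 in tumors (3.38%) and 1 in the interaction with tissue (1.55%). With no limit on the fold change, 15 in place of 8 ISGs passed for tumors against non-tumor tissues of BF BSHhigh mice, as did 4819 genes upward and 4509 downward of 15653. Leaving out each library in turn gave 0 to 1 calls in tumors (1 without replicate c), 0 in non-tumor tissues, 0 to 15 at 2 weeks, 12 to 21 for tumors against non-tumor tissues in BF BSHlow mice and 6 to 12 in BF BSHhigh mice. For 12 against 2 weeks it gave 7 to 17 calls in BF BSHlow mice and 24 to 29 in BF BSHhigh mice. The interaction with tissue had 0 to 1 (1 without replicate c, 1.99% of all genes) and the interaction with time 0. Over all genes, 15.1% to 16.6% were called higher and 17.0% to 19.0% lower in BF BSHlow tumors against non-tumor tissues. The shares were 13.1% to 15.1% and 13.4% to 16.1% in BF BSHhigh mice. For 12 against 2 weeks, 6.99% to 8.42% of all genes were lower in BF BSHlow and 6.78% to 8.33% in BF BSHhigh mice.

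The replicate number was tried as a block. Same-numbered libraries correlated at −0.21 to 0.30. With so few libraries this cannot settle whether a shared number marks the same mouse. With the replicate block the calls were 0 in non-tumor tissues, 0 at 2 weeks and 0 in the interaction with time. Over all genes, at most 0.00727% were called in either direction in these fits. Tumors against non-tumor tissues of BF BSHlow mice gave 14 calls, 3 higher (15.7% of all genes) and 11 lower (17.3%). For 12 against 2 weeks, 7 in place of 11 ISGs were lower in BF BSHlow mice (7.22% of all genes). In BF BSHhigh mice 25 were lower (7.04% of all genes). Not every library correlated best with its own number. No block was possible for BF BSHhigh tumors, whose columns carry no replicate number of their own.

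Of 1303 values of single genes under alternatives, 1209 kept their direction and their side of the threshold, 25 lost and 38 gained a call, and 31 changed sign, none of them called. *Usp18* in tumors ran from −0.16 to 0.43 without 1 library. *Stat2* in tumors against non-tumor tissues was at 0.18 (BF BSHlow) and 0.21 (BF BSHhigh) under library size scaling, and from −0.32 to 0.06 without 1 library in BF BSHhigh mice. *Isg15* there ran from −0.09 to 0.55 and from −0.06 to 0.54. *Usp18* for 12 against 2 weeks in BF BSHlow mice ran from −1.43 to 0.49. In the interaction with tissue, *Stat2* ran from −0.13 to 0.42, *Isg15* from −0.40 to 0.42 and *Usp18* from −0.53 to 0.08. In the interaction with time, *Stat2* was at −0.03 (limma-voom), 0.00 (all libraries in 1 fit) and −0.02 (replicate block), and ran from −0.33 to 0.20 without 1 library, and *Irf9* from −0.54 to 0.05. The cause of these changes was not tested. Groups of 3 or 4 libraries and low counts, as in *Mx2* at 2 to 88 counts, limit what can be called.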
